A study of Mus musculus with 56 samples.

Results

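Myelin is the stack of membrane that oligodendrocytes wrap around axons, and its assembly needs structural proteins as well as a membrane unusually rich in galactolipids. Myelin basic protein, encoded by Mbp, holds the inner membrane faces together, while Mag and Omg are surface proteins that face the axon and Cldn11 seals the layers with tight junctions. Ugt8a and Gal3st1 act in series, the first making galactosylceramide and the second adding the sulfate that turns it into sulfatide. Most of these genes are switched on late in the lineage, as oligodendrocyte precursors mature, while Cnp, another myelin gene, starts early. They are used as markers of the lineage in brain and in brain tumours. Levels of Mbp, Cnp, Mag, Omg, Cldn11, Ugt8a and Gal3st1 were followed in medulloblastomas and related tumours of mice and in cultures of neural stem cells and of cells grown out of tumours. The genes were found by their exact symbols in the probe annotation. Each was represented by a single probe, which gave 7 genes of the 15224 with a probe of their own.

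The series holds 56 Affymetrix arrays that read whole transcripts, each from a sample of its own, and all mice were of FVB/N background. Neural stem cells (NSCs) came from the cerebellum at postnatal day 0 (P0C), the cerebellum at embryonic day 16 (E16C) or the forebrain at postnatal day 0 (P0F), received N-myc (T58A), a stabilised form of the oncoprotein, and were transplanted into the brain. This gave 3 P0C, 3 E16C and 3 P0F orthotopic tumours. The cultures of P0C origin were cells grown out of a tumour, N-myc (T58A) NSCs, and NSCs carrying only GFP in a sorted and an unsorted sample (n = 4). Those of E16C origin were cells grown out of a tumour, N-myc (T58A) NSCs and GFP NSCs (n = 3), and those of P0F origin were GFP NSCs and cells grown out of a tumour that the labels call a glioma (n = 2). The other arrays were of 32 medulloblastomas from GTML mice, 1 culture of GTML tumour cells, and 5 cerebella of GTML mice on doxycycline at postnatal day 7 (P7). In GTML mice a glutamate transporter promoter active in glia drives MYCN through a tetracycline switch, and doxycycline keeps the transgene off. GTML tumours and P7 cerebella were labelled by a different protocol from the transplanted tumours and cells, and the labels do not settle which was used for the GTML tumour cells. Whether the 3 tumours of an origin began from different NSC cultures is not given, so the p-values measure the spread between these samples. The cultures of an origin were of different kinds and were pooled as 1 group in the fits. Their spread therefore holds that between kinds of culture. The titles number the tumour that gave each culture of tumour cells, and whether it is a tumour on one of the arrays is not given. The fits treat the arrays as independent. With the cells grown out of tumours left out of the cultures, the counts of genes called against cultures were 7 in P0C and 0 in E16C tumours. The 7 include Mag and Gal3st1, which passed the filter on low values, given below, only through the P0C tumours. In P0F this leaves the GFP NSC array alone, which stood apart as described next, and no count is given.

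Some arrays stood apart from their groups or labels. The P0F GFP NSC array held the photoreceptor genes Crx at 10.19, Otx2 at 11.82 and Rbp3 at 10.10 on the log2 scale, and the mean of 5 such genes was 9.81 there, against 6.21 to 6.94 in the other 17 arrays of the transplant series and 10.66 in GTML tumour cells. Counts and differences that rest on this array are also given without it where they bear on the 7 genes and their lists. GTML tumours 20, 22, 30 and 31 had a mean of 7.33, 8.93, 10.31 and 7.69 for the same genes, against 11.70 to 12.89 in the other 28 GTML tumours, and the GTML counts and differences against cerebella are also given without them. The sorted and unsorted P0C GFP NSC arrays correlated at r = 0.991 across 14425 genes, and whether they came from the same culture is not given. Omg was blank in the tumour cells of E16C, P0F and GTML origin and Gal3st1 in the E16C GFP NSCs, and these cells were left out of the fits.

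The stretches of DNA upstream of Cnp, Mag and Gal3st1 are shown because they are the windows that hold a motif of factors known to act on myelin genes. Windows of 250 bases before the outermost annotated start were taken from RefSeq (GRCm38.p6) for 5 members, of which Mag and Gal3st1 have 3 starts each. Mbp and Omg were not among them and were not searched. Capitals mark matches, on both strands, to the SOX motif (ACAAAG or ACAATG) and to CTGGNAC. The latter was searched for the myelin regulator MYRF with any base allowed at N.
Cnp, chr11:100574689-100574938, plus strand: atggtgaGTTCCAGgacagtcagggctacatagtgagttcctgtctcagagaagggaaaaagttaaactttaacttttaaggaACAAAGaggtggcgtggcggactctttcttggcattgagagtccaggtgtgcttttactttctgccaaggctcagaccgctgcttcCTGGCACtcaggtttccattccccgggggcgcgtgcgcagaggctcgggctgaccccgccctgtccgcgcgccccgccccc
Mag, chr7:30914923-30915172, minus strand: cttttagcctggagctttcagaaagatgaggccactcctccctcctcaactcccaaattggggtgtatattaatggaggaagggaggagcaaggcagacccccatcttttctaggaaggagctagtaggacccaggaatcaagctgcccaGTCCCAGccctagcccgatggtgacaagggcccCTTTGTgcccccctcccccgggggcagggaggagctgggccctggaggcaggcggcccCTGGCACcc
Gal3st1, chr11:3983386-3983635, plus strand: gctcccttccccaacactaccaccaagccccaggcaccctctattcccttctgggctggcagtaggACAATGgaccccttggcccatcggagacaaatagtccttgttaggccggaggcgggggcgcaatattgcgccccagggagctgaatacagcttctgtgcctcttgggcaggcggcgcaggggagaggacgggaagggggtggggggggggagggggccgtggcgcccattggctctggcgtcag
The Cnp window held 3 matches, a SOX match that begins at position -167 from the start and MYRF matches at -243 and -81. The Mag window also held 3, a SOX match at -67 and MYRF matches at -100 and -9. The Gal3st1 window held 1 SOX match, at -184, and the windows of Cldn11 and Ugt8a held none. A SOX match was present in 25.2% and a MYRF match in 16.1% of all 32851 windows in the table. The E-boxes CAGCTG and CACGTG, searched in the same way, were in none of the 5 windows and in 13.0% and 6.02% of all windows. These letters are a description of the sequence and show neither binding nor its absence.

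In the P0C tumours Mbp, Cnp, Omg, Cldn11 and Ugt8a rose above the P0C cultures, by 3.03 for Cnp to 5.19 for Mbp on the log2 scale. Mag and Gal3st1 were past the test too, but they entered it only through the P0C tumours, since 1 of the other 15 arrays of the transplant series was over the filter of 6.30 for each. Their size is therefore given as a description. With no filter on low values all 7 genes were called, where 3.86% of genes were. The 3 tumours lay above all cultures for each of the 7. Of the 12631 genes that passed the filter, 4.88% were called in either direction and 2.45% as higher, and groups without overlap in the higher direction were found for 6.82% of genes. The test was a linear model across all genes moderated by limma, with Benjamini-Hochberg adjusted p under 0.05 as the threshold. A level is the log2 value of the array, and a probe's level is compared only with itself in other arrays. In these bulk samples, more cells that make a transcript and more transcript per cell cannot be told apart.

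**Figure D1:**
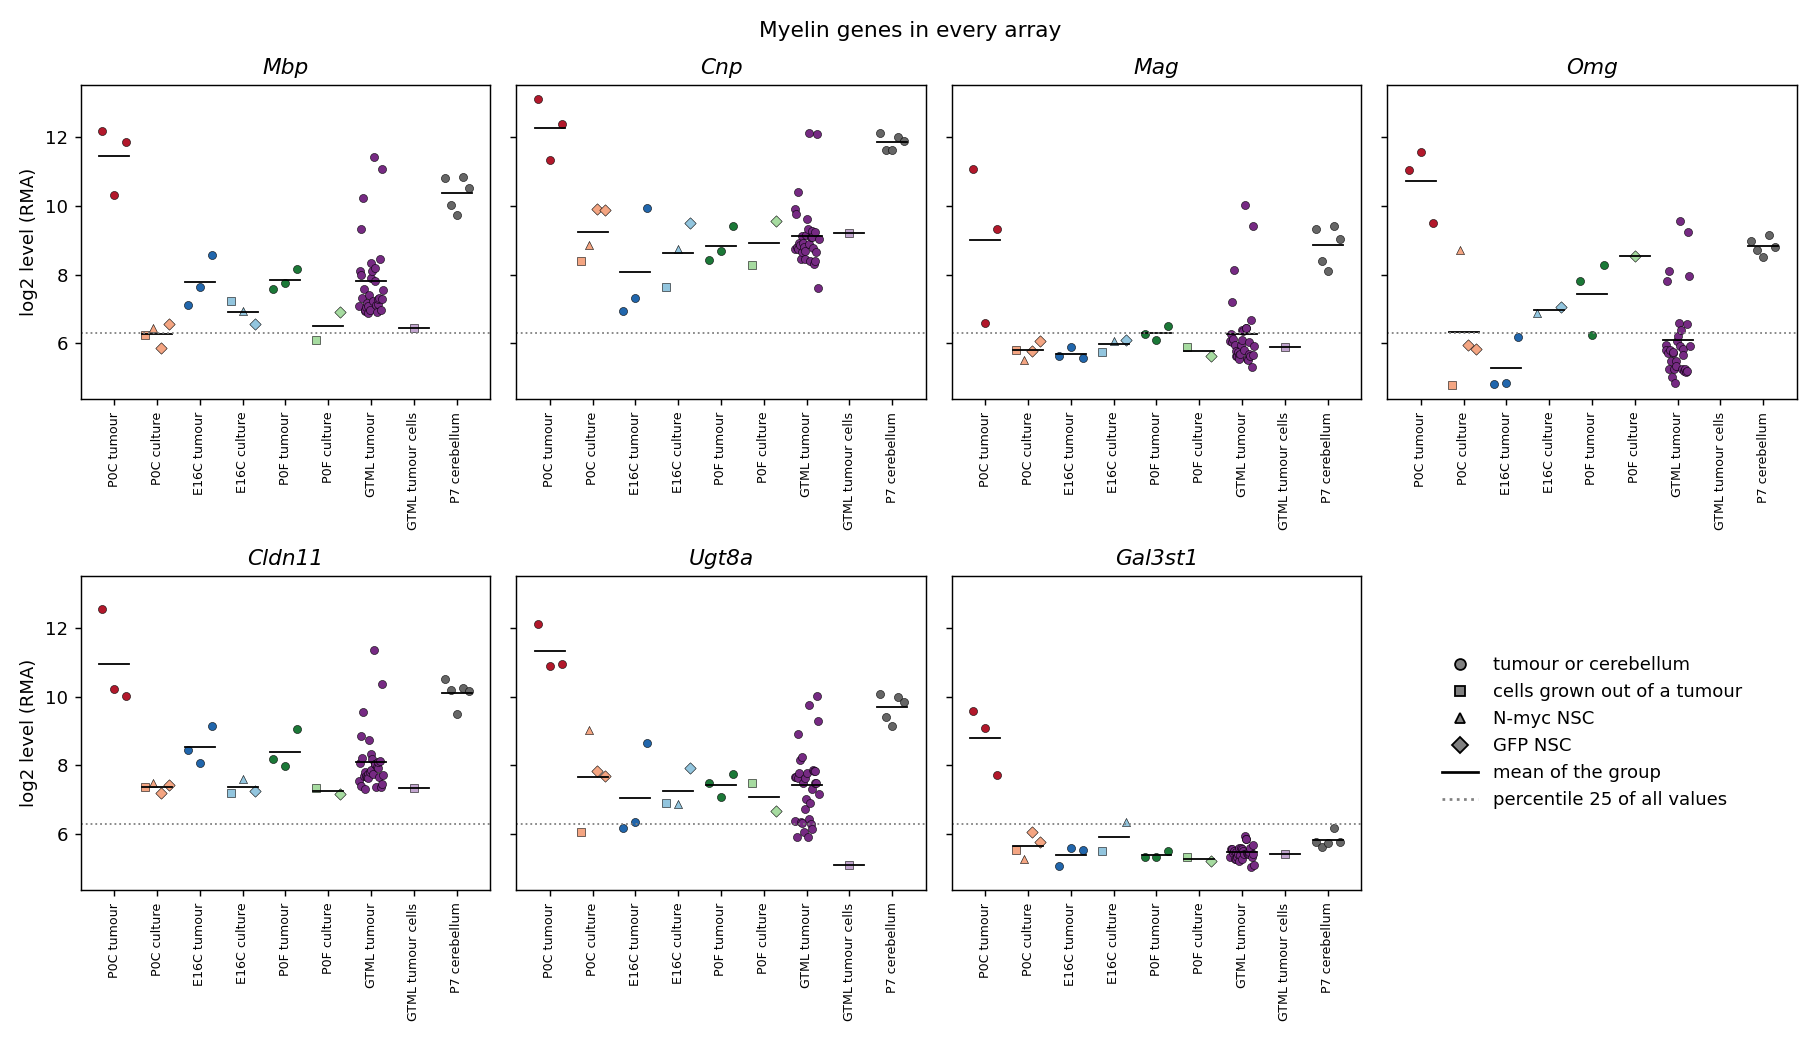
Level of each of the 7 genes in every array (log2, RMA), by group, with the group mean as a bar and the percentile 25 of all values (6.30) as a dotted line. The 3 P0C tumours have the highest group mean in all 7 panels, and Gal3st1 is above 6.30 in 4 arrays, the 3 P0C tumours among them.

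Mbp (probe 6862586) stood at 12.19, 10.33 and 11.86 in P0C tumours 1, 2 and 3, against 6.25 in P0C tumour cells, 6.44 in N-myc NSCs, 5.86 in sorted GFP NSCs and 6.55 in unsorted GFP NSCs. Every tumour lay far above every culture, by a mean of 5.19 (SE 0.41, limma adjusted p = 1.4e-05), which is 36.4-fold. The cells grown out of a P0C tumour lay within the range of the NSC cultures.

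Cnp (probe 6784205), the gene of a phosphodiesterase of the myelin sheath that oligodendrocytes start to make early, read 13.11, 11.35 and 12.39 in P0C tumours, against a level of 8.40 in P0C tumour cells, 8.86 in N-myc NSCs, 9.90 in sorted and 9.87 in unsorted GFP NSCs. Its level was already well above 6.30 in all 4 cultures. The difference was 3.03 (SE 0.68, limma adjusted p = 0.0199). It lost the call without P0C tumour 1 or without P0C tumour 3, when 6 of the 7 genes were called.

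Mag (probe 6966324), an adhesion protein of the inner myelin face, was the most uneven gene among the P0C tumours. It read 11.08 and 9.32 in tumours 1 and 3 but 6.60 in tumour 2, against 5.51 to 6.08 in the 4 cultures. Tumour 2 was thus close to the highest culture, and the SD of the tumours was 2.26. The difference was 3.21 (SE 0.65, limma adjusted p = 0.0112), and 0.0127 was the limma adjusted p with no filter. All 4 cultures were under 6.30.

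Omg (probe 6790045), a surface glycoprotein that also limits axon growth, showed another order. Tumour 2 was the highest of the 3, with 11.58, against 11.05 in tumour 1 and 9.51 in tumour 3. The cultures were spread, with 8.73 in N-myc NSCs, 5.95 and 5.82 in sorted and unsorted GFP NSCs, and 4.79 in tumour cells. The difference was 4.39 (SE 0.81, limma adjusted p = 0.00905).

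Cldn11 (probe 6896524), the claudin of central myelin, was nearly constant in the cultures, at 7.20 to 7.50, against 12.56, 10.23 and 10.02 in the P0C tumours. It rose by 3.57 (SE 0.47, limma adjusted p = 0.000639). Tumour 1 was the highest of the 3 by more than 2 log2 units.

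The enzymes of the galactolipid branch rose as well. Ugt8a (probe 6909083) read 12.11, 10.91 and 10.95 in P0C tumours, against a level of 6.06 in P0C tumour cells, 9.04 in N-myc NSCs, 7.83 in sorted and 7.70 in unsorted GFP NSCs, a difference of 3.66 (SE 0.65, limma adjusted p = 0.00552). Gal3st1 (probe 6778355) read 9.58, 9.10 and 7.71 in P0C tumours, against 5.54, 5.27, 6.05 and 5.76 in the same cultures, a difference of 3.14 (SE 0.36, limma adjusted p = 0.000302). With no filter the limma adjusted p was 0.000316. All 4 culture values of Gal3st1 lay under 6.30, the percentile 25 of all values. It was at or above that level in only 4 of the 56 arrays, the fourth being the E16C N-myc NSCs at 6.35.

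**Figure D2:**
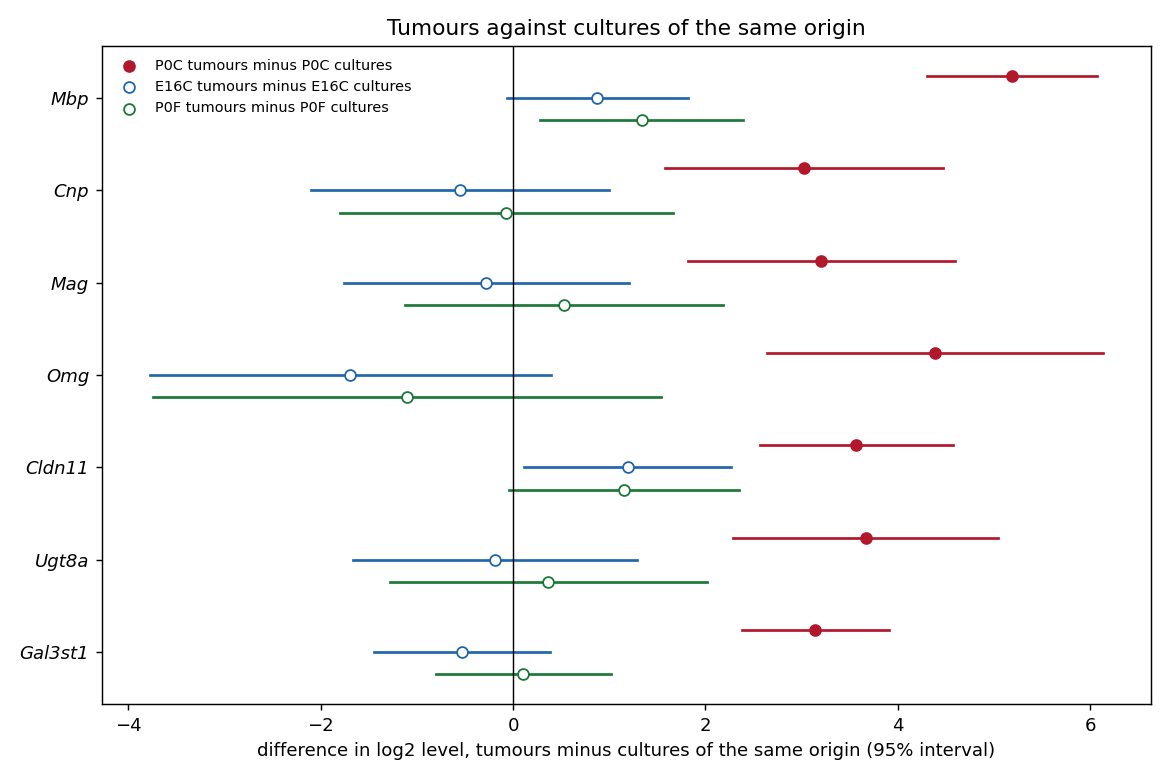
Difference in log2 level, tumours minus cultures of the same origin, for each of the 7 genes, with the 95% interval from the fit. Filled points are past the test, and all 7 of these belong to the P0C tumours, at 3.03 to 5.19. Mag and Gal3st1 passed the filter through those tumours alone.

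The E16C tumours gave another picture. None of the 7 genes was called against E16C cultures by limma, where 1.58% of genes were, and at an unadjusted p under 0.05 only Cldn11 was past (1 of 7, against 15.6% of genes). Cldn11 read 8.44, 8.06 and 9.15 in E16C tumours, against 7.21 in tumour cells, 7.61 in N-myc NSCs and 7.25 in GFP NSCs. The tumours lay above all cultures by 1.19 on average (SE 0.50, limma adjusted p = 0.271), a difference that did not pass the test.

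Tumour 3 differed from its group for several of the genes. Cnp was 9.94 in E16C tumour 3, against 6.96 and 7.32 in tumours 1 and 2, with 7.63 to 9.49 in the cultures. Ugt8a was 8.65 in tumour 3, against 6.18 and 6.35 in the other E16C tumours, with 6.88 to 7.94 in the cultures. Mbp was 8.58, 7.11 and 7.65 in tumours 3, 1 and 2, with 6.55 to 7.22 in the cultures. Of the precursor and lineage genes, Sox10 at 10.36 and Gpr17 at 8.96 were higher in tumour 3 than in tumours 1 and 2, where they were 7.18 and 7.28 and 5.95 and 6.26. Others ran differently, with Pdgfra at 7.81 in tumour 3, 10.17 in tumour 1 and 6.77 in tumour 2, and Olig2 at 8.04, 7.46 and 8.17 in tumours 3, 1 and 2. Mag was under 6.30 in each E16C tumour, at 5.56 in tumour 3 and 5.64 and 5.90 in the others, so no order is read for it.

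The differences in E16C were -0.56 for Cnp (95% interval -2.10 to 0.99), -0.28 for Mag (-1.76 to 1.20) and -0.19 for Ugt8a (-1.66 to 1.29). They were 0.87 for Mbp (-0.07 to 1.82), -0.53 for Gal3st1 (-1.45 to 0.38) and -1.69 for Omg (-3.78 to 0.39), the last with 2 cultures. Omg was 4.82, 4.84 and 6.19 in E16C tumours, against 6.89 and 7.06 in N-myc and GFP NSCs, so the groups did not overlap while the fit made no call. Of the 7 genes, Cldn11 lay above all E16C cultures, as did 7.77% of all genes, and Omg below all of them, as did 13.6%.

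In the P0F tumours none of the 7 genes was called against P0F cultures by limma either, where 2.17% of genes were. At an unadjusted p under 0.05 only Mbp was past (1 of 7, against 14.8% of genes). Mbp read 7.58, 7.75 and 8.17 in P0F tumours, against 6.09 in tumour cells and 6.91 in GFP NSCs, a difference of 1.34 (SE 0.49, limma adjusted p = 0.198). Cldn11 read 8.19, 7.97 and 9.06, against 7.34 and 7.16, a difference of 1.15 (SE 0.56, limma adjusted p = 0.359). Both genes lay above both cultures in all 3 tumours without passing the test, as did Mag, at 6.28, 6.11 and 6.50 in P0F tumours, against 5.90 and 5.63. Tumours above both cultures, as for these 3 genes, were found for 18.3% of all genes. Omg lay below its single culture, and tumours below all cultures were found for 23.6%.

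The other P0F differences were small beside their intervals. Cnp differed by -0.07 (95% interval -1.80 to 1.66), Mag by 0.53 (-1.13 to 2.19), Ugt8a by 0.36 (-1.28 to 2.01) and Gal3st1 by 0.11 (-0.80 to 1.02). Omg differed by -1.10 (-3.74 to 1.54) from a single culture, the GFP NSCs, at 8.54. That culture is the array that stood apart and the other was blank, and with the blank cells filled the difference was 1.24. Without the P0F GFP NSC array, which stood apart, the differences were 1.74 for Mbp, 0.57 for Cnp, 0.39 for Mag, 1.06 for Cldn11, -0.05 for Ugt8a and 0.06 for Gal3st1, with none called by limma, where 0.43% of genes were called and 8.95% had an unadjusted p under 0.05 (1 of the 6 genes left). No culture was left for Omg.

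The contrast between origins was itself tested for each gene. The P0C difference between tumours and cultures exceeded the E16C difference by 4.31 for Mbp (SE 0.61, limma adjusted p = 0.0155) and by 3.67 for Gal3st1 (SE 0.56, limma adjusted p = 0.0233), which made 2 of the 7 genes past the test where 0.0476% of all genes were. Gal3st1 entered this test through the P0C tumours alone, and with no filter its limma adjusted p was 0.0257, where 0.0409% of genes were called. For the other 5 the excess was 2.38 to 6.08, with limma adjusted p-values of 0.139 to 0.355. Against the P0F difference the excess was 3.85 for Mbp (SE 0.65, limma adjusted p = 0.0447), the only one of the 7 past the test, where 0.0555% of all genes were. Without the P0F GFP NSC array this excess was 3.44 with a limma adjusted p of 0.455. The call was lost as well, at values of 3.48 to 3.94, without E16C tumour 2, E16C N-myc NSCs, E16C GFP NSCs, P0C tumour 1, P0C tumour 3, P0C tumour cells, sorted or unsorted P0C GFP NSCs, or P0F tumour 1. The Gal3st1 call against E16C was lost, at 3.26 to 3.71, without E16C tumour 1, E16C N-myc NSCs, P0C tumour cells, unsorted P0C GFP NSCs, P0F tumour 1 or P0F tumour 2. The P0F and E16C differences were not told apart for any of the 7 genes by limma (0 at an adjusted p, where 0.0238% of genes were called, and 0 at an unadjusted p, where 6.72% were). As a mean over the 3 origins, tumours stood above cultures for 4 of the 7 genes, where 13.9% of genes were called. These were Mbp by 2.47, Cldn11 by 1.97, Ugt8a by 1.28 and Gal3st1 by 0.91. The differences of Mbp and Cldn11 were positive in each origin. That of Ugt8a was 3.66 in P0C, -0.19 in E16C and 0.36 in P0F, and that of Gal3st1 was 3.14, -0.53 and 0.11. Gal3st1 entered this test too through the P0C tumours alone. With no filter Ugt8a was not called, and without the P0F GFP NSC array or without the E16C tumour cells Mbp and Cldn11 were left.

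Set against each other, the tumours ordered in the same way. All 7 genes were higher in P0C than in E16C tumours by limma, where 0.894% of genes were called, with differences from 2.39 for Cldn11 to 5.43 for Omg. Mag and Gal3st1 passed the filter only through the P0C tumours here too, and with no filter the count was 7, where 0.735% of genes were called. Mbp was higher by 3.68 (SE 0.44, limma adjusted p = 0.00159), and Gal3st1 by 3.40 (SE 0.38, limma adjusted p = 0.00147). Without E16C tumour 1 only 2 of the 7 genes were called, and without E16C tumour 2 there were 4. Against P0F tumours, 5 of the 7 genes were higher in P0C tumours, where 2.34% of genes were called, and 5 with no filter, where 1.86% were. Mag, by 2.70 (limma adjusted p = 0.0575), and Omg, by 3.27 (limma adjusted p = 0.0718), were the 2 that did not pass. Without P0C tumour 1, P0F tumour 1 or P0F tumour 2 there were 3 called. None was called between P0F and E16C tumours by limma, where 0.736% of genes were called, and 1 of 7, Omg, had an unadjusted p under 0.05, where 10.6% of genes did. Omg read 7.80, 6.24 and 8.29 in P0F tumours, against 4.82, 4.84 and 6.19 in E16C tumours (difference 2.16, SE 0.86, limma adjusted p = 0.374). These comparisons share the P0C or the E16C tumours with those above, and are not independent of them.

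The genes around the 7 in the pathway were read from lists of other myelin proteins, of enzymes of sphingolipid and galactolipid metabolism and of regulators of myelination. In P0C tumours against P0C cultures, 6 of 16 other myelin proteins rose and none fell, where 4.88% of all genes were called. Their median difference was 1.86, against -0.07 for all genes tested. The largest rises were of Gjc3, a connexin of glia, by 4.30 (limma adjusted p = 0.0421), Plekhb1 by 3.05 (limma adjusted p = 0.0094) and Pllp, a proteolipid of myelin membrane, by 2.90 (limma adjusted p = 0.00481).

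Among 13 sphingolipid and galactolipid enzymes, 1 rose and none fell, where 4.88% of genes were called, and the median was -0.07, the same as for all genes. The riser was Fa2h, which hydroxylates the fatty acids that go into myelin galactolipids. It read 9.99, 8.96 and 8.91 in P0C tumours, against a level of 5.99 in P0C tumour cells, 6.19 in N-myc NSCs, 6.21 in sorted and 6.54 in unsorted GFP NSCs. The Fa2h difference was 3.05 (SE 0.27, limma adjusted p = 2.6e-05), with no overlap. The other 12 enzymes of the list did not pass the test.

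Of 12 regulators, 7 rose and none fell, where 4.88% of genes were called, with a median of 1.97. Among the 7, Enpp6 was under 6.30 in every P0C culture, E16C array and P0F tumour. Levels that low limit what its difference can show. Gpr17, a receptor of precursors about to mature, rose by 4.51 (limma adjusted p = 0.000694), Erbb3, a neuregulin receptor, by 3.91 (limma adjusted p = 0.00795) and Sox10, a factor of the whole lineage, by 3.89 (limma adjusted p = 0.000954). In E16C tumours none of the 3 lists held a gene called by limma, where 1.58% of genes were. The medians were 0.01, -0.20 and 0.15, against -0.08 for all genes. In P0F tumours the regulator Zeb2 was the only gene of the lists called, where 2.17% of genes were, and was higher by 1.33 (limma adjusted p = 0.0257). Without the P0F GFP NSC array Zeb2 was at 1.60 (limma adjusted p = 0.0945), and the 3 lists held no call against the 1 culture left. In P0C tumours, whose fit shares the spread with that array, 5 of 16 other myelin proteins, 1 of 13 lipid enzymes and 7 of 12 regulators were then called, where 4.28% of genes were.

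**Figure D3:**
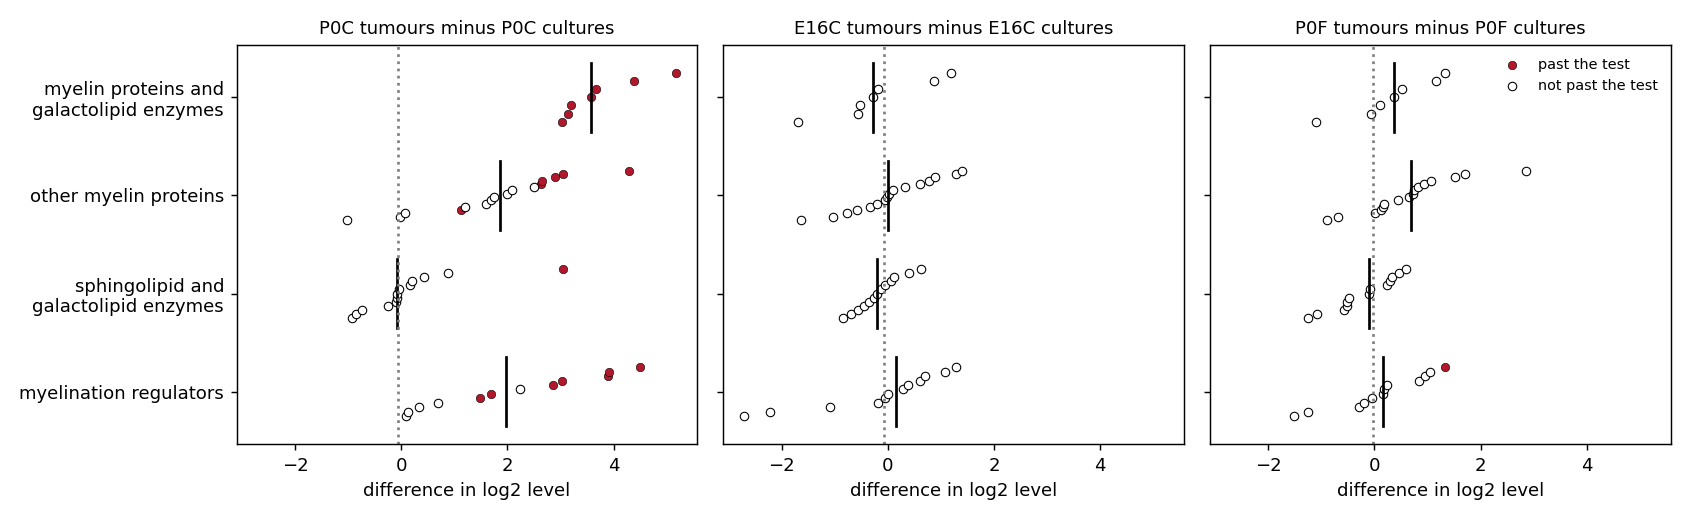
Difference in log2 level, tumours minus cultures of the same origin, for each gene of the 4 lists, with the list median as a bar and the median of all genes tested as a dotted line. In P0C tumours 7 of 7 members, Mag and Gal3st1 having passed the filter through those tumours alone, 6 of 16 other myelin proteins, 1 of 13 lipid enzymes and 7 of 12 regulators are past the test (filled), and in P0F tumours 1 regulator. Of the regulators past the test in P0C tumours, Enpp6 was under 6.30 in every P0C culture.

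P0C tumour 2 held the least Mag of the 3 P0C tumours and the most of the precursor genes. The mean of 6 oligodendrocyte precursor genes was 11.66 in tumour 2, against 10.20 and 9.47 in the other P0C tumours and 8.14 to 8.56 in P0C cultures. Pdgfra, the growth factor receptor of precursors, read 13.10 in tumour 2, with 11.17 in tumour 1 and 8.04 in tumour 3. Other myelin genes did not share 1 order. Mobp was lowest in tumour 2, at 6.86, with 10.54 and 10.15 in tumours 1 and 3, while Pllp was highest there, at 10.98, with 9.11 and 7.85. Plekhb1 was highest in tumour 2 as well, at 12.19, with 11.66 and 10.55. Of the 7 genes, Omg, Cldn11 and Gal3st1 were lowest in tumour 3.

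Markers of other cell types moved with the P0C result too. In that comparison 4.88% of all genes were called in either direction and 2.45% as higher. The mean of 6 microglial genes was 7.81 to 8.61 in P0C tumours, against 6.43 to 7.51 in P0C cultures, with 5 of 6 called as higher. The mean of 5 endothelial genes was 7.77 to 8.44, against 6.10 to 6.29, with 3 of 5 called, and that of 5 astrocyte genes 8.60 to 9.56, against 7.85 to 8.17, with 2 of 5 called. The neuronal list did not separate the groups, at 7.47 to 9.78 in P0C tumours, against 7.70 to 8.62 in P0C cultures, and none of its 6 genes was called. Schwann cell genes, which mark the other myelinating cell, were at 6.33 to 7.50 in P0C tumours, against 6.68 to 8.12, with none of 3 called.

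The microglial, endothelial and astrocyte lists were higher in the tumours of the other origins too. In E16C tumours 3 of 6, 2 of 4 and 1 of 5 genes were called, where 1.58% of all genes were. In P0F tumours it was 5 of 6, 1 of 4 and 2 of 5, where 2.17% of all genes were called. Microglial genes stood at 8.03 to 8.19 in E16C tumours, against 6.55 to 6.80 in E16C cultures, and at 8.41 to 8.86 in P0F tumours, against 6.27 to 6.49 in P0F cultures. Endothelial genes stood at 7.48 to 8.13 in E16C tumours, against 5.88 to 6.37, and at 7.26 to 7.79 in P0F tumours, against 5.87 to 6.09. Astrocyte genes stood at 8.92 to 9.30 in E16C tumours, against 7.42 to 8.63, and at 9.51 to 10.27 in P0F tumours, against 8.13 to 9.04. Without the P0F GFP NSC array the remaining P0F culture stood at 6.49 for microglial, 6.09 for endothelial and 8.13 for astrocyte genes, with 3 of 6, 0 of 4 and 2 of 5 called. In E16C tumours neuronal genes stood at 7.97 to 8.64, against 6.74 to 7.87, and Schwann cell genes at 6.39 to 6.72, against 6.59 to 6.95. In P0F tumours neuronal genes stood at 8.70 to 9.38, against 7.63 to 9.26, and Schwann cell genes at 6.72 to 7.35, against 6.52 to 6.62. The part of host brain cells in the P0C result was not tested.

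Across the whole series 6 of the 7 genes shared the group with the highest mean and the one after it. Mbp averaged 11.46 in P0C tumours, 10.39 in P7 cerebella, 7.84 in P0F tumours, 7.82 in GTML tumours and 7.78 in E16C tumours, and 6.91, 6.50, 6.44 and 6.27 in E16C cultures, P0F cultures, GTML tumour cells and P0C cultures. The first and second place were P0C tumours and P7 cerebella for Cnp (12.28 and 11.85), Mag (9.00 and 8.86), Omg (10.71 and 8.84), Cldn11 (10.94 and 10.12) and Ugt8a (11.32 and 9.69) as well. For Mag the 3 P0C tumours spanned 6.60 to 11.08 and the 5 cerebella 8.11 to 9.40, so these neighbours were not separated. The third place varied, with P0F tumours for Mbp, P0C cultures for Cnp (9.26) and Ugt8a (7.66), P0F cultures for Omg (8.54, from 1 array) and E16C tumours for Cldn11 (8.55). Gal3st1 averaged 8.80 in P0C tumours, and every other group mean lay under 6.30, where no order is read. Because the labelling protocols differed, group and protocol cannot be told apart in the step between P0C tumours and cerebella, and no test was made.

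Among genes with a value in all 56 arrays (13091), those most like the mean of the 7 genes in their levels were Tubb4a (r = 0.951), Fa2h (0.885), S100b (0.881), Dnm3 (0.879), Mobp (0.874) and Lsamp (0.866). Tubb4a averaged 11.48 in P0C tumours, 7.60 in P0C cultures and 10.51 in P7 cerebella. Fa2h averaged 9.29 in P0C tumours, 6.23 in P0C cultures and 6.99 in P7 cerebella. These are correlations over arrays that share groups and protocols, and are given as a description.

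The GTML tumours stood below the P7 cerebella for all 6 of the genes that passed the filter on low values, where 57.7% of genes were called in either direction and 24.8% as lower. Gal3st1 did not pass the filter, at 5.47 ± 0.20 in GTML tumours (SD, n = 32) and 5.82 ± 0.21 in P7 cerebella (SD, n = 5). Mbp had a lowest, median and highest level of 6.90, 7.32 and 11.41 in GTML tumours, against 10.82, 10.02, 9.73, 10.86 and 10.52 in the cerebella. It was lower by a mean difference of -2.56 (SE 0.51, limma adjusted p = 7.7e-05). The tumours spanned a wider range than the cerebella and overlapped them at the upper end.

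That overlap came from a few tumours. For Mbp, Mag and Cldn11 tumours 6, 20 and 30 reached the range of the cerebella and the other 29 lay below all of them. For Cnp and Omg it was tumours 20 and 30, with 30 below. For Ugt8a it was tumours 20, 30 and 31, with 29 below. Tumours 20 and 30 were above the highest cerebellum for Mbp, at 11.41 and 11.08, against a highest cerebellum of 10.86.

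The astrocyte and neuronal lists moved with these tumours. In tumours 20 and 30 the astrocyte mean was 11.51 and 11.60, against 11.33 to 11.55 in the cerebella and 6.91 to 10.01 in the 28 tumours. The neuronal mean was 11.67 and 11.78, against 11.33 to 11.61 in the cerebella and 9.07 to 10.30 in the 28. The part of neighbouring cerebellum in these values was not tested. Without tumours 20, 22, 30 and 31 the 6 genes were still lower, by -2.18 for Cldn11 to -3.00 for Omg.

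The other genes of the 3 lists were mostly lower in GTML tumours as well, where 24.8% of all genes were called as lower. Of 15 other myelin proteins 10 were lower and none higher, with a median of -0.84, against 0.10 for all genes, and the largest falls were of Bcas1 by a difference of -2.65, Gjc3 of -2.57 and Cntn2 of -2.13. Of 13 lipid enzymes 8 were called in either direction, a share near that of all genes. These were 7 lower, led by Fa2h at -0.93, Gltp at -0.92 and Arsa, which removes the sulfate of sulfatide, at -0.61, and 1 higher, Kdsr at 0.74 (median -0.36). Of 12 regulators 8 were lower, led by Gpr17 at -3.25, Olig1 at -1.41 and Tcf7l2 at -0.88, and 1 was higher, Nkx6-2 at 0.39 (median -0.61). Genes of other cell types were lower too, with 5 of 5 astrocyte, 4 of 6 neuronal and 3 of 5 endothelial genes lower. Schwann cell genes were higher in 3 of 3, but their levels were low. Their mean was 5.70 to 6.07 in cerebella and had a median of 6.38 in GTML tumours. Egr2 and Dhh of that list were under 6.30 in every cerebellum, which limits what these calls can show. Of 6 microglial genes 3 were higher and 1 lower. The part of these cell types in the result was not tested. Without tumours 20, 22, 30 and 31, where 74.4% of genes were called, 12 of 15 other myelin proteins were lower and 1 higher, 8 of 13 lipid enzymes lower and 2 higher, and 8 of 11 regulators lower and 1 higher. The medians were then -0.96, -0.40 and -0.65, against 0.12 for all genes. Of the marker lists, 5 of 5 astrocyte, 4 of 6 neuronal and 4 of 5 endothelial genes were then lower, and 3 microglial genes were higher and 2 lower of 6. With the same limit of low levels, 2 of 2 Schwann cell genes were higher.

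Tumour 31 set the genes apart from each other. It held the lowest Cnp of all 32 tumours, 7.61, with Mbp at 7.28 close to its median of 7.32. Mag, at 5.66, was under 6.30, as was its median of 5.96. Ugt8a at 9.30 and Omg at 7.95 were in the upper part of their ranges. Its astrocyte mean, 6.16, was the lowest of the 32. Among the 28 other tumours, tumour 6 was the highest for Mbp (10.22), Cnp (10.40), Mag (8.13), Omg (8.12), Cldn11 (9.57) and Ugt8a (8.90), and tumour 3 the next for Mbp (9.33), Mag (7.20), Omg (7.82) and Cldn11 (8.86).

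**Figure D4:**
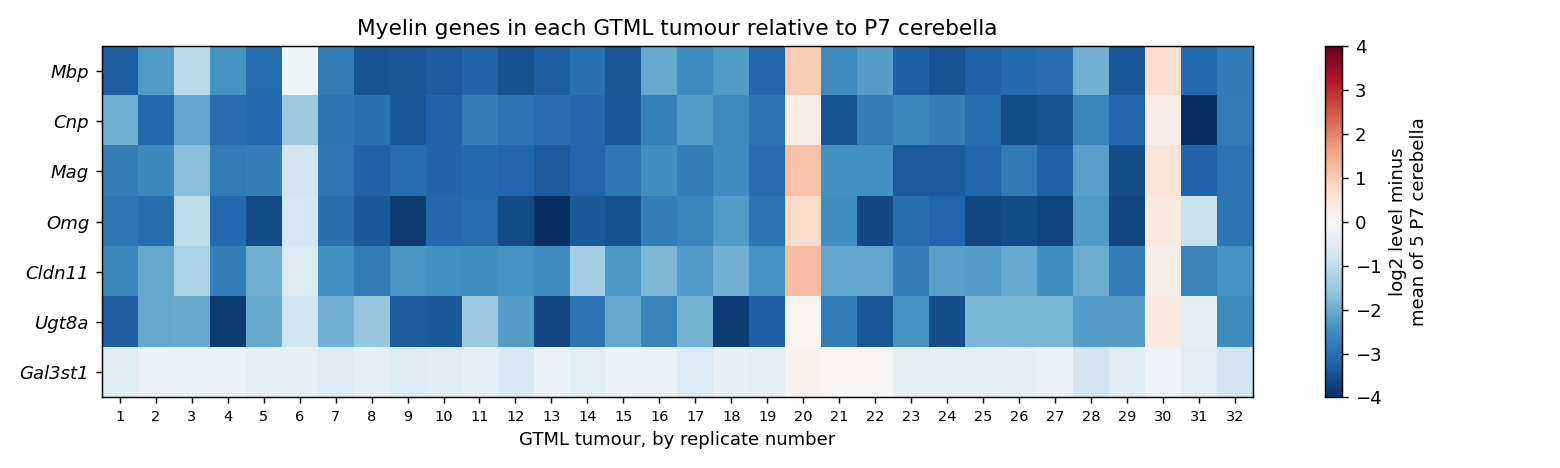
Level of each of the 7 genes in each of the 32 GTML tumours (columns, by replicate number) minus the mean of the 5 P7 cerebella, in log2 units from -4 (blue) to 4 (red). Tumours 20 and 30 are above 0 for the 6 genes other than Gal3st1, and tumour 6 is close to 0 for Mbp.

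Within the 28 GTML tumours the genes did not all vary together. Of 21 pairs, 6 were past both tests by 100000 permutations after adjustment over the pairs, where 1e-05 is the smallest p they can give before adjustment. Mbp and Mag reached r = 0.944 with a permutation p of 7e-05 after adjustment, while their rho of 0.808 had one of 0.00042, and r was 0.835 without tumours 3 and 6, the ones farthest from the median of Mbp. The others were Mbp with Omg (r = 0.897, rho = 0.685) and with Cldn11 (0.780, 0.578), Cnp with Omg (0.767, 0.703), and Mag with Omg (0.890, 0.709) and with Cldn11 (0.806, 0.675). Leaving out the 2 tumours farthest from the median took r to 0.720, 0.434, 0.707, 0.711 and 0.483 for these pairs in the same order. Only the pair of Mbp with Cldn11 held neither Mag nor Omg. The median of the 28 tumours was 5.94 for Mag and 5.74 for Omg, both under 6.30. Levels that low limit what these relations can show.

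Neither enzyme of the galactolipid branch was in a pair past both tests. Ugt8a had r of 0.183 to 0.345 with the 5 other genes that passed the filter, with adjusted permutation p-values of 0.135 to 0.464, and rho of -0.0153 to 0.143. Gal3st1, which was under 6.30 in every GTML tumour, had r of -0.212 to 0.158 with the other 6. Levels of Ugt8a ran from 5.90 in tumour 4 to 8.90 in tumour 6, and those of Omg from 4.86 to 8.12. The difference between these correlations was not tested.

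GTML tumours were set against the single culture of GTML tumour cells with the culture assumed to vary like the tumours. None of the 5 genes with values past the filter was called by limma, where 15.7% of genes were. Ugt8a had an unadjusted p under 0.05 (1 of 5, against 27.4% of genes). It had a lowest, median and highest level of 5.90, 7.49 and 10.02 in GTML tumours, against 5.11 in the culture, below all 32 tumours (difference 2.32, SE 1.03, limma adjusted p = 0.134). Without tumours 20, 22, 30 and 31 the difference was 2.12 with a limma adjusted p of 0.0284, where 35.6% of genes were called. With 1 culture array this p rests on the spread of the tumours alone. Mbp read 6.44 in the culture, also below all tumours, as were 12.8% of all genes (difference 1.38, SE 1.13, limma adjusted p = 0.48), while Cnp, at 9.20, lay within their range.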

How the data were processed

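The authors deposited log2 values. RMA and the mouse build mm9 are named in the submitters' processing notes, without versions or settings. The table held 17831 probes, with values from 2.37 to 14.88, array medians from 7.86 to 8.25 and 3.12% blank cells, which were left missing. Precision is limited by the number of arrays. Of the probes, 15620 carried a single gene symbol, and the brightest on average stood for a gene that had several. Groups came from sample titles. The members and the lists were chosen with earlier results of these data known.

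Genes entered a test if they exceeded 6.30, the percentile 25 of the table, in a number of arrays equal to the size of the smaller group, with a minimum of 2. Linear models per gene were moderated with limma 3.58.1 in R 4.3.3. They used the 18 arrays of the transplant series, 32 GTML tumours with 5 cerebella, and 32 GTML tumours with 1 culture. In the transplant series each origin had a mean for tumours and a mean for cultures, whatever the kind of culture. Blank cells were left out gene by gene. Benjamini-Hochberg adjustment ran over all genes tested, with a threshold of 0.05. The models were tested on simulated data. Named genes were the 7 members, of each list at most 3 called genes with the largest rise and 3 with the largest fall, and the 6 genes most like the members' mean. E16C tumour 3, P0C tumour 2 and the genes named beside them were singled out after their values were seen, as were Crx, Otx2, Rbp3, Pdgfra and Mobp. Relations over tumours used Python 3.11.15 and 100000 permutations.

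Other settings tried were a filter at percentile 50 or none, averaged probes, quantile normalization, centring, trend and robust moderation, weighted arrays, a joint model of all 56 arrays, filled blanks, other sets of cultures, a replicate block and leaving out each array of groups of up to 5. Leaving out GTML tumours 20, 22, 30 and 31, and an unpaired fit of tumours 1 to 5, were added after seeing the data, as were the lists without the P0F GFP NSC array, without those 4 tumours and with no filter.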

Additional observations from a re-analysis of the deposited data

Results flagged for a closer look

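The test of the difference between origins was past the threshold for 3 values. The tumour-culture difference of Mbp was larger by 4.31 in P0C than in E16C (limma adjusted p = 0.0155) and by 3.85 in P0C than in P0F (limma adjusted p = 0.0447), and that of Gal3st1 was larger by 3.67 in P0C than in E16C (limma adjusted p = 0.0233). Gal3st1 passed the filter on low values through the P0C tumours alone, and with no filter its limma adjusted p was 0.0257. The Mbp call against P0F was lost without the P0F GFP NSC array, which stood apart, in other omissions of single arrays and with centred arrays. The Gal3st1 call was lost in several omissions too. All 3 P0C tumours lay above all 4 P0C cultures for both genes, as was found for 6.82% of all genes. In P7 cerebella the Gal3st1 level of replicate 4, 6.17, was farther from the other 4 (5.64 to 5.78) than Dixon's test allows. There were 14 such groups tested and 1 outlier, and chance gives about 1 in 20.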

How the results depend on the processing

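The count of 7 genes higher in P0C tumours than in P0C cultures held under every other setting run on all arrays and was 6 to 7 when single arrays were left out. In every setting of the transplant series that used a filter, Mag and Gal3st1 passed it only through the P0C tumours. For these genes the settings repeat a description. With array weights 34.8% of all genes were called in that comparison, against 4.88% without them. E16C tumours against cultures stayed at 0 in all alternatives and omissions. P0F tumours against cultures had 1 with array weights, where 9.07% of all genes were called, against 2.17% without them. The count was 0 in every omission of a tumour or of an array of another origin. The larger P0C than E16C difference, called for 2 genes, was called for 7 with array weights. Those weights called 6.27% of all genes there, against 0.0476% without them. The difference was called for 5 with all 56 arrays and 1 with filled blanks, and for 1 to 4 when single arrays were left out. Gal3st1 lost this call in 7 of these settings, and Mbp in none. The larger P0C than P0F difference, called for 1, was called for 0 with centred arrays and 7 with array weights. The weights called 20.6% of all genes in that case, against 0.0555% without them. The count was 3 with all 56 arrays and 0 to 2 when single arrays were left out. The mean over origins, 4 genes, was 2 with the kind of culture and origin as additive terms, and 2 to 4 when single arrays were left out. P0C against E16C tumours gave 2 to 7 and P0C against P0F tumours 3 to 6 when single arrays were left out, and P0C against P0F gave 3 with the 9 tumours alone. GTML tumours against P7 cerebella stayed at 6 in every omission of a cerebellum. GTML tumours against GTML tumour cells, with 0, had 1 with array weights and 1 without the 4 tumours.

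Replicate numbers did not pair the samples: 1 of 9 same-numbered pairs of orthotopic tumours and 0 of 5 pairs of GTML tumours and cerebella had a correlation over 0.1, and 8 of 18 and 1 of 10 comparisons were best with their own number. With the number as a replicate block, P0C against E16C tumours gave 3 genes, P0C against P0F tumours 2, and GTML tumours 1 to 5 against cerebella 6. Direction turned, far from the threshold each time, for Mag in E16C under quantile normalization (0.10), Omg in P0F with filled blanks (1.24) and Cnp in GTML tumours against their cells under quantile normalization (0.014). When single arrays were left out it turned in some omissions for Cnp in E16C (-1.49 to 0.0018), Ugt8a in E16C (-0.98 to 0.25), Cnp in P0F (-0.71 to 0.57) and Ugt8a in P0F (-0.045 to 0.77). The cause was not tested. Over all 32 GTML tumours 8 of the 21 pairs passed both tests. Levels under 6.30, as of Gal3st1 outside the P0C tumours, limit what a difference can show.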
